A study of Mus musculus with 12 samples.

Results

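The genes described here had more exonic and more intronic reads in both of 2 mouse embryonic stem cell knockouts than in the wild-type line paired with each. They were chosen from the deposited group means by a ratio r, the knockout mean plus 1 over the wild-type mean plus 1. In both pairs, r had to be at least 2 in exons and at least 2 in introns, and the knockout mean had to reach 50 normalised reads in exons and 20 in introns. Of 18412 genes in the files, 138 met this. The choice also named 9 genes to leave out, of which 4 met it (Msln, Smyd1, Tmprss5 and Megf11), so 134 members remained, or 0.728% of the genes. Taken 1 table at a time, the same rule held for 6.65% of all genes in Dicer exons, 7.55% in Dicer introns, 6.06% in Dgcr8 exons and 6.26% in Dgcr8 introns. Since the knockout and wild-type values chose the members, their size in these tables is a description and carries no test.

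The series holds strand-specific sequencing of polyadenylated RNA from 12 libraries in 4 groups of 3. The first pair sets Dicer1-/- cells against the line TFC, and the second sets Dgcr8-/- cells against the line V6.5. All 4 groups are embryonic stem cells grown without feeders on gelatin, in medium with serum and leukaemia inhibitory factor (LIF). Each group is a line that was sequenced 3 times, and nothing in the labels says that its libraries came from separate cultures or clones. Each knockout is compared with another line, so loss of Dicer1 or Dgcr8 and other line differences cannot be told apart.

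Dgcr8 works with Drosha in the nucleus to cut microRNA precursors out of primary transcripts, and Dicer cuts those precursors into mature microRNAs in the cytoplasm. A microRNA pairs through its seed with sites in messenger RNAs, mostly in 3' untranslated regions (UTRs), and lowers their stability and translation. Intronic reads come mainly from RNA that is not yet spliced, while exonic reads come mainly from mature messenger RNA. A gene whose RNA becomes more stable would be read more in exons than in introns, and a gene that is transcribed more would be read more in both. In mouse embryonic stem cells the best-known microRNAs are the miR-290 family and its relative miR-302.

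The seed is shown first because the members' 3' UTRs were searched for its match. Mature sequences are from RefSeq, 5' to 3', with the seed, bases 2 to 8, in capitals. The first 5, from the miR-290 and miR-302 families, share 1 seed, and let-7a is given for comparison.
mmu-miR-291a-3p: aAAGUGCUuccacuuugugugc
mmu-miR-294-3p: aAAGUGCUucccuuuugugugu
mmu-miR-295-3p: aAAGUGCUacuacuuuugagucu
mmu-miR-302b-3p: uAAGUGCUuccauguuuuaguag
mmu-miR-302d-3p: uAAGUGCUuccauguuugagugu
mmu-let-7a-5p: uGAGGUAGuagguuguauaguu
The DNA letters that pair with the shared seed are AGCACTT, and those for let-7a are CTACCTC.

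Of the 134 members, 21 held AGCACTT in their longest annotated 3' UTR (GENCODE vM21, build GRCm38), which is 15.7%. Among the other genes that met all 4 knockout minima and have an annotated 3' UTR, 1646 of 8165 held it, or 20.2%. Per kilobase of 3' UTR the members had 0.136 sites and the other genes 0.134. The comparison set was 35 genes with an exon ratio of at least 2 in both pairs but an intron ratio between 1/1.5 and 1.5, and 26 of them held the site, or 74.3%, at 0.329 sites per kilobase. Median 3' UTR length was 1302.5 bases in members, 1476 in the other genes and 2296 in those 35. The let-7 letters were found in 11.2% of members, 12.5% of the other genes and 14.3% of the 35. These shares are descriptions of annotated sequence and carry no test.

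**Figure D1:**
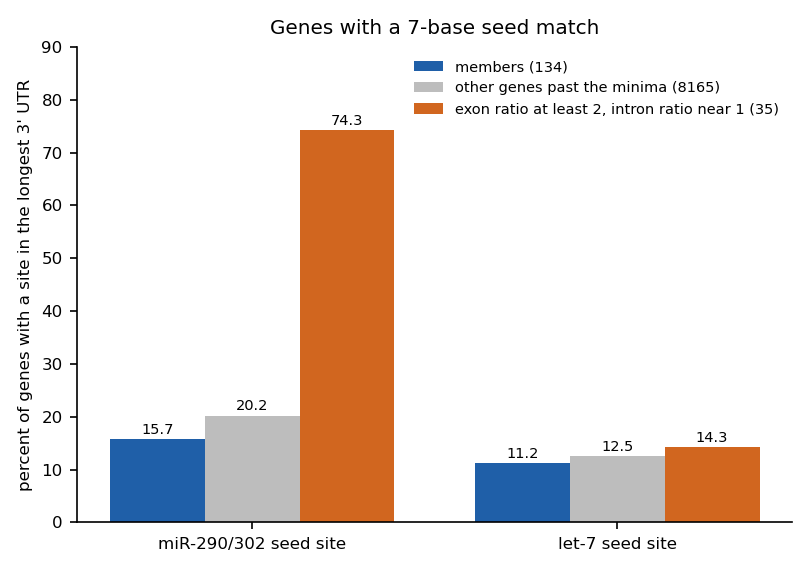
Percent of genes (vertical axis) whose longest annotated 3' UTR holds a 7-base seed match, for the miR-290 and miR-302 and let-7 seeds, in the 134 members, in 8165 other genes past the minima and in 35 genes with raised exons and flat introns (which are also among the 8165). The members stand at 15.7% and the other genes at 20.2% for miR-290 and miR-302, against 74.3% in the 35 genes.

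The members with the most sites were Itsn2, a scaffold protein of endocytosis, Mb21d1, the DNA sensor cGAS, and Zbtb41, a zinc finger protein, with 3 each. Ccdc141, Txnip and Zbtb38 had 2 each. Txnip, an inhibitor of thioredoxin that is induced by glucose, was the only member in a list of 20 miR-290 and miR-302 targets, and its sites are given with 11 bases on either side and the site in capitals, named by its position in the 3' UTR.
Txnip at base 711: gtgatgttcttAGCACTTtagcttgtcaa
Txnip at base 1129: cactaagccttAGCACTTtgtcctgtgtc
Zbtb38 at base 734: gaaatcagtagAGCACTTggaatctgact
Zbtb38 at base 1827: ttgtatactgtAGCACTTtgctgttaacc
Pax6 at base 112: tggcggttagaAGCACTTcactttgtaac
Ccdc141 at base 537: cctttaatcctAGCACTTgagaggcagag
Mb21d1 at base 1638: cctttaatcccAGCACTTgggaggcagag
Nid1 at base 312: cctgcaaccctAGCACTTgggaggcagag
The last 3 share letters around the site. The letters TTAATC in the 11 bases before or GGCAGAG in the 11 after, chosen after the windows were seen, stood beside 4 of the members' 30 sites (13.3%), 183 of 2087 in the other genes (8.77%) and 0 of 36 in the 35 genes with flat introns. Such letters are known from the B1 family of short interspersed repeats in the mouse.

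In the 21 with a site the median log2 exon ratio less log2 intron ratio, averaged over both pairs, was -0.04, and in the 113 without it was -0.03. The exon ratio was the larger in 8 of 21 and in 44 of 113.

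The median ratio of the members was 3.42 in Dicer exons, 3.69 in Dicer introns, 3.89 in Dgcr8 exons and 4.07 in Dgcr8 introns. Ratios reached 156 in exons (Hoxa10, Dicer) and 51.9 in introns (Tbx4, Dicer). Over all 8322 genes past the minima, the median log2 ratio lay between -0.01 and 0.04 in the 4 tables. In 20 members all 4 ratios were at least 4, and in 60 the smallest ratio was under 2.5. All 134 are protein-coding in GENCODE vM21.

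**Figure D2:**
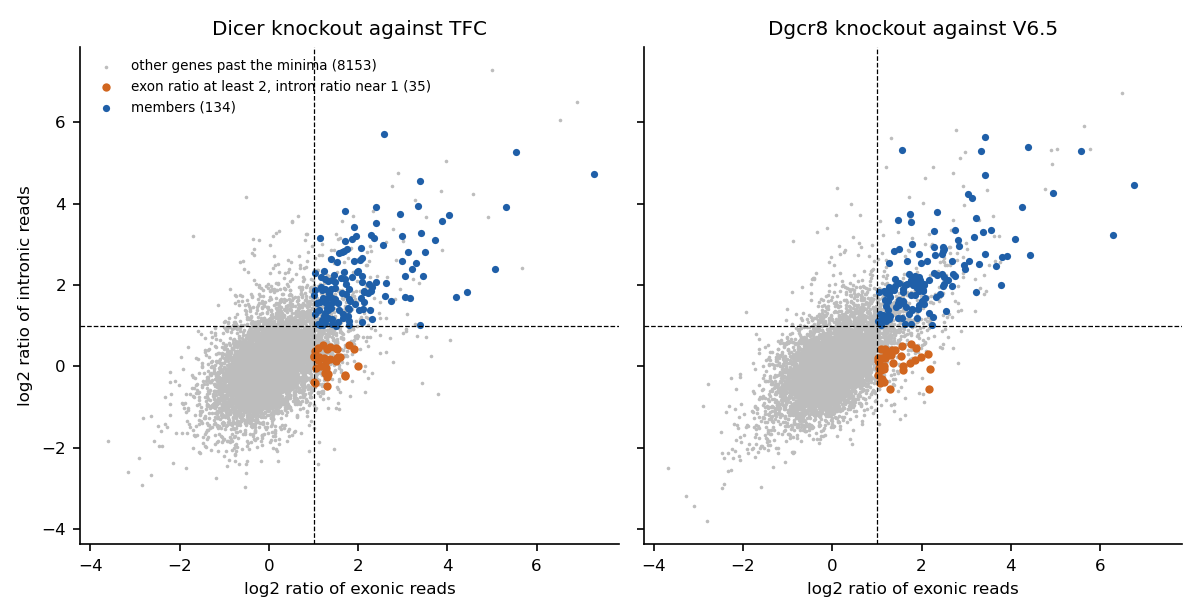
Log2 ratio of exonic reads (horizontal axis) and of intronic reads (vertical axis), knockout over wild type, for the genes past the knockout minima, with Dicer on the left and Dgcr8 on the right. The 134 members fill the upper right past the dashed lines at a ratio of 2, as the rule sets, and the 35 genes with flat introns lie below it.

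Library facts touch these values. The deposited means were split into reads per library (libraries A, B and C of each group, letters of no order in the labels). Exonic reads per library were 5889725 to 31495700 and intronic reads 559057 to 5597604. Intronic reads made up 6.18% of the reads in Dgcr8 knockout library A and 8.67% in V6.5 library A, and 11.4% to 15.1% in the other 10. Library A is named for the lowest mean correlation with the other 2, which was 0.812 against 0.875 and 0.858 for B and C in Dgcr8 knockout and 0.795 against 0.861 and 0.841 in V6.5. In TFC it was 0.768 against 0.802 and 0.775, and in Dicer knockout 0.855 against 0.856 and 0.862, where the 3 differ little. The 3 libraries of a group never agreed within sampling noise. Between 60.2% and 80.4% of nonzero read numbers were even, and no source used here says how fragments were counted. TFC library B had many zeros: 25 members were at 0 in its exons and 57 in its introns, against at most 10 in exons and 20 in introns in any other library. Where the other 2 TFC libraries averaged 20 to 200 normalised intronic reads, library B was at 0 in 35.6% of members and in 22.2% of the other genes past the minima. In the exons of such genes these shares were 35.2% and 18.7%. The part of these zeros in the choice of the members was not tested. Without that library 128 genes met the rule, and 107 of them were among the 134 members.

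Embryonic stem cell factors were present in every group, but V6.5 was lower than Dgcr8 knockout in several. Pou5f1 stood at 19210 and 16640 normalised exonic reads in Dicer knockout and TFC while Dgcr8 knockout had 15640 and its wild type 9585. Sox2 had means of 16620 in Dgcr8 knockout and 7854 in V6.5, where library B held 2615. The naive pluripotency list of 25 had 10 genes with a ratio of at least 2 and 2 with at most 0.5 in the Dgcr8 pair, and 1 and 4 in the Dicer pair. Summed over the 24 with library values, it was at 97070 to 129000 in Dgcr8 knockout and 55460 to 105700 in V6.5. Markers of mesoderm and primitive streak summed to 319 to 393 in Dgcr8 knockout and 868 to 5199 in V6.5, with T, or brachyury, at 66.0, 2021 and 2243 in the 3 wild-type libraries and at 0 in the knockout. In the Dicer pair the same markers were at 707 to 873 in the knockout and 522 to 558 in TFC. Kdr alone held 346, 434 and 461 of this in Dicer knockout and 0, 0 and 40.3 in TFC. Of the 15 markers in the files, 3 had a ratio of at least 2 and 7 of at most 0.5 in the Dicer pair. In the Dgcr8 pair these counts were 1 and 9. Primitive endoderm markers summed to 20430 to 31970 in Dicer knockout and 8727 to 11380 in TFC. In the Dgcr8 pair they summed to 13960 to 14580 in the knockout and 15560 to 25380 in V6.5. Without Sparc, the highest of them, the Dicer pair had 5913 to 7804 against 4723 to 6433, which overlap. The Dgcr8 pair then had 3901 to 5071 against 8531 to 10280. Of the 18, 7 had a ratio of at least 2 and 5 of at most 0.5 in the Dicer pair, and 1 and 10 in the Dgcr8 pair. None of the genes in these 3 lists was a member, and the part of such cells in the members' values was not tested.

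The genes with the highest smallest ratio opened with Hoxa10, a homeobox factor of the posterior body axis (chromosome 6, 52231197 to 52240854, minus strand). Its exonic reads were 233, 156 and 77.0 in Dicer knockout libraries A, B and C and 0 in all 3 TFC libraries. Against a floor of 3 reads over the TFC group, the knockout was at least 108-fold higher. The Dgcr8 pair had 165, 277 and 179 in the knockout and 0, 49.0 and 6.4 in V6.5. Intronic reads of Hoxa10 were 59.8, 10.4 and 5.6 in Dicer knockout and 34.1, 0 and 40.5 in Dgcr8 knockout, and 0 in all 6 wild-type libraries. The exonic groups thus do not overlap in either pair, while Dgcr8 knockout library B has no intronic read and meets the wild type there.

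Cbr3, a carbonyl reductase (chromosome 16, 93683215 to 93690990, plus strand), had 424, 485 and 595 exonic reads in Dicer knockout and 72.8, 0 and 38.8 in TFC. In Dgcr8 knockout they were 1085, 637 and 774, and in V6.5 127, 81.6 and 38.3. The log2 difference of means on the log2(value + 1) scale was 5.12 (standard error 1.53) in the Dicer pair and 3.45 (0.53) in the Dgcr8 pair, with n = 3 against 3. Intronic reads were 34.1, 138 and 197 in Dgcr8 knockout against 0, 1.5 and 5.0 in V6.5, and 56.6, 124 and 133 in Dicer knockout against 7.1, 0 and 26.6 in TFC. Every knockout library was above every wild-type library in all 4 tables.

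Egfl6, a secreted protein of epithelial basement membranes on chromosome X (166523007 to 166585720, minus strand), was also among the 12 members with the highest smallest ratio. Exonic reads were 174, 437 and 308 in Dicer knockout against 8.6, 0 and 79.1 in TFC, and 252, 586 and 507 in Dgcr8 knockout against 15.2, 10.9 and 134 in V6.5. Intronic reads stood at 322, 852 and 1205 against 14.2, 62.3 and 76.9 in the Dicer pair. Dgcr8 introns held 242, 494 and 765 against 35.5, 34.0 and 7.5. No table had an overlap, and library A was the lowest of the 3 knockout libraries in each.

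**Figure D3:**
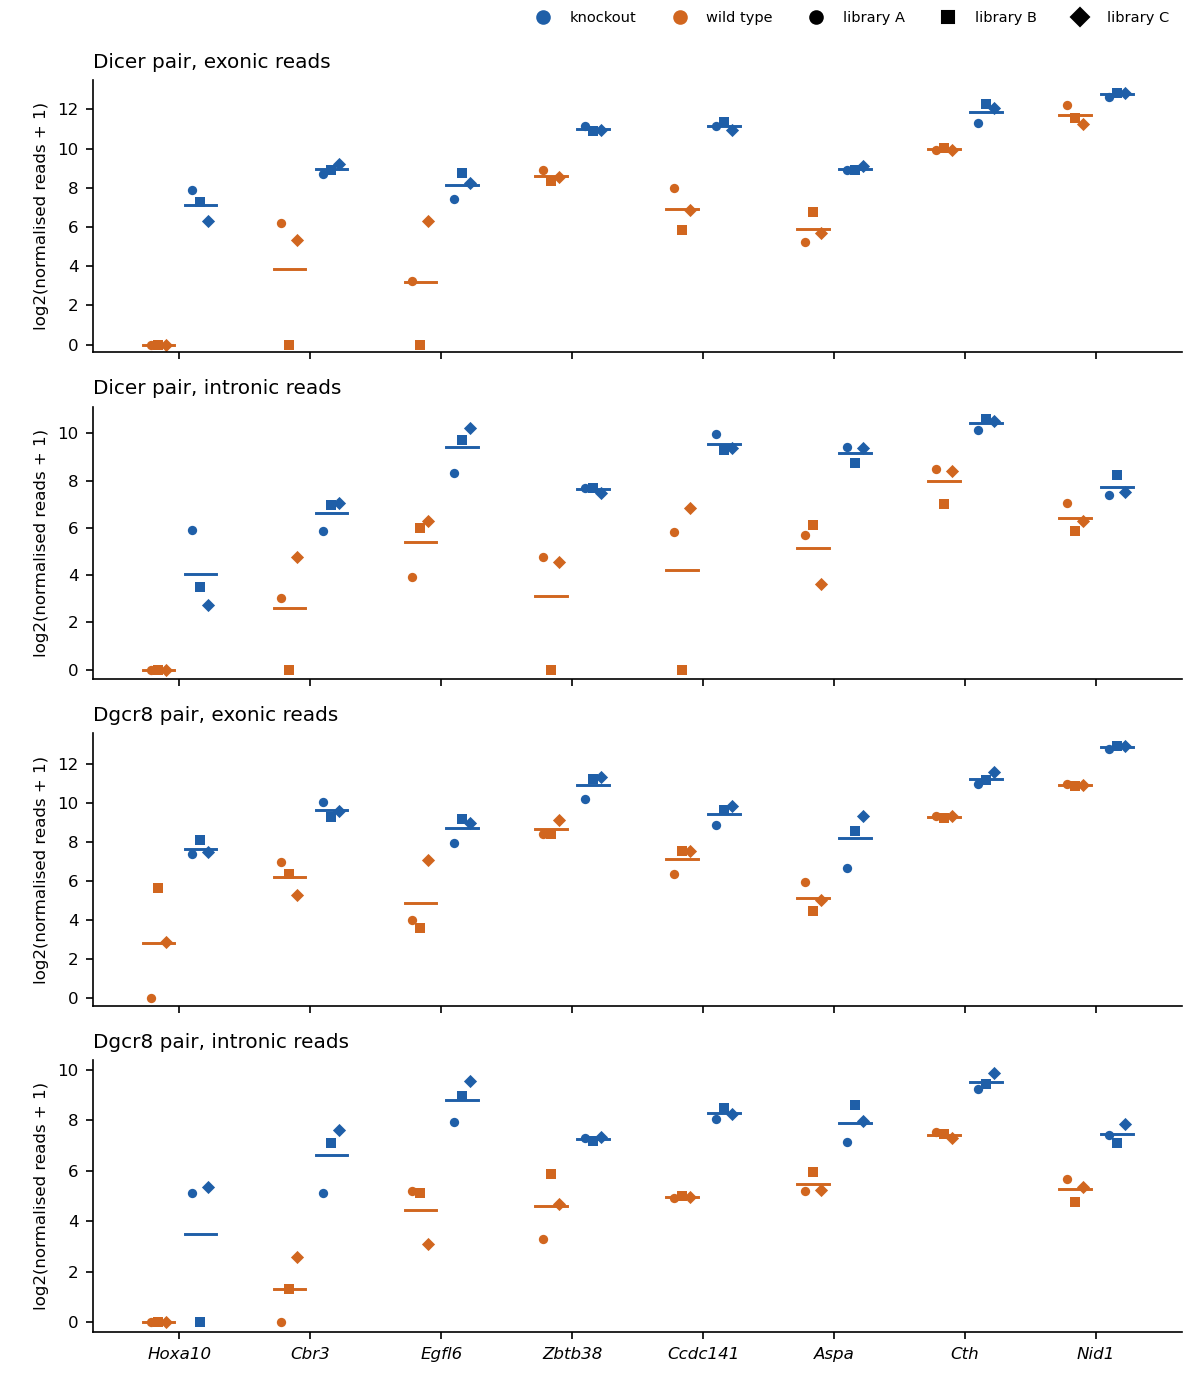
Normalised reads plus 1 on a log2 axis (vertical) of 8 members in each library, knockout in blue and wild type in orange, with circles, squares and diamonds for libraries A, B and C and bars for the means of the log2 values. Rows run from Dicer exons and introns to Dgcr8 exons and introns, and the TFC library B squares of Cbr3, Egfl6, Zbtb38 and Ccdc141 stand at 0 in 1 of the Dicer rows or both.

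Transcription and chromatin factors made up 16 members, in a grouping by role that was made after the members were known. Their median exon ratio was 3.24 in the Dicer pair and 3.55 in the Dgcr8 pair, and their median intron ratios were 3.86 and 4.20. Meis2 and Pknox2, homeobox partners of Hox factors, had ratios of 7.92 and 8.66 in Dicer exons and 3.94 and 3.08 in Dgcr8 exons. Meis2 exonic reads were 732, 995 and 1094 in Dicer knockout against 49.2, 97.5 and 207 in TFC, with no overlap. Dgcr8 exons held 247, 643 and 903 against 60.9, 191 and 201, where knockout library A is close to the wild-type libraries B and C.

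Bmi1, a subunit of Polycomb repressive complex 1, had 935, 1806 and 1211 exonic reads in Dicer knockout and 203, 183 and 365 in TFC. The Dgcr8 knockout libraries held 414, 1118 and 1189 and the V6.5 libraries 168, 203 and 191. Zbtb38, a zinc finger protein that binds methylated DNA, was among the members with the highest smallest ratio and a high level. Exonic reads were 2323, 1916 and 2014 against 489, 330 and 371 in the Dicer pair and 1192, 2429 and 2573 against 348, 345 and 574 in the Dgcr8 pair. Its intronic reads were 207, 208 and 178 against 26.4, 0 and 22.4, and 155, 145 and 160 against 8.9, 57.2 and 24.9.

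Pax6, a factor of eye and neural development, and Tead4, the Hippo pathway partner of Yap in trophectoderm, were the only members in the neural and trophectoderm lists. For Pax6, TFC library C held 351 exonic and 97.8 intronic reads, close to the knockout values of 360 to 427 and 63.6 to 114. The intronic groups of Pax6 overlap in both pairs. Of the 23 neural markers in the files, 5 had a ratio of at least 2 and 6 of at most 0.5 in the Dicer pair. In the Dgcr8 pair these counts were 9 and 8. Without Pax6 the neural markers summed to 14030 to 16380 in Dicer knockout against 9088 to 12080 in TFC. In the Dgcr8 pair they summed to 13480 to 14890 against 8473 to 16110. Without Stmn2, the highest, the sums overlap in both pairs, at 6372 to 10480 against 4787 to 7008 and 7646 to 9241 against 4719 to 9530. Tead4 had 1174, 845 and 1204 exonic reads in Dicer knockout against 541, 125 and 129 in TFC, and 875, 762 and 792 in Dgcr8 knockout against 485, 348 and 169 in V6.5. Neither knockout overlapped its wild type in the exons or introns of Tead4. The summed level of the 14 trophectoderm markers, Tead4 included, was 5132 to 7149 in Dicer knockout libraries against 2071 to 6783 in TFC, and 2279 to 3904 in Dgcr8 knockout against 11820 to 15800 in V6.5. Elf5, a defining trophoblast factor, was at 0 in TFC and in Dgcr8 knockout, and Plac1 was at 0 in both knockouts. Without Tead4 the sums were 3928 to 5975 against 1946 to 6242, and 1488 to 3029 against 11650 to 15450. With Tead4 kept and Tfap2c, the highest in the Dicer pair, left out, the Dicer sums were 2610 to 3243 against 683 to 1747. Of the 14, 7 had a ratio of at least 2 and 2 of at most 0.5 in the Dicer pair, and 1 and 11 in the Dgcr8 pair. In the Dgcr8 pair the list was thus lower in the knockout while Tead4 was higher.

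Genes of immunity and inflammation made up 17 members. The median exon ratio was 4.28 in the Dicer pair and 4.12 in the Dgcr8 pair, and the median intron ratios were 4.55 and 4.77. Zbp1, a sensor of Z-form nucleic acids that can start necroptosis, had 514, 598 and 298 exonic reads in Dicer knockout and 12.3, 110 and 104 in TFC. Its Dgcr8 exons were at 247, 228 and 232 against 20.3, 25.4 and 36.7. Mb21d1 had an exon ratio of 10.5 in the Dicer pair and 3.72 in the Dgcr8 pair, but its intronic groups overlap in the Dicer pair, where TFC library B held 82.3 reads and the knockout 18.5 to 96.3.

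Irak3, an inhibitor of Toll-like receptor signalling, was the immune member with the highest wild-type level per kilobase of exon. Its exonic reads were 2781, 4039 and 4523 in Dicer knockout against 1008, 828 and 1775 in TFC, and 1899, 2747 and 2980 in Dgcr8 knockout against 361, 606 and 532 in V6.5. The intronic reads followed, at 998, 930 and 1094 against 459, 418 and 446, and at 639, 719 and 723 against 157, 128 and 148. The spread of Irak3 among libraries was small beside the gap in the introns of both pairs, but not in the exons. In Dicer exons the knockout libraries alone ran from 2781 to 4523, while TFC reached 1775. Its annotation overlaps Tmbim4 on the other strand, and no source used here says whether the counting used strand.

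Nod1, a cytosolic sensor of bacterial cell wall peptides, lies near another member, Scrn1. In Dicer knockout its introns held 1404, 1798 and 1926 reads against 299, 277 and 549 in TFC. In Dgcr8 knockout they held 769, 482 and 448 against 198, 212 and 145 in V6.5. Exonic reads of Nod1 were 2067, 1546 and 1677 against 649, 550 and 252, and 972, 468 and 455 against 409, 276 and 110.

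Fcgr2b, the inhibitory receptor for immunoglobulin G, reached its highest ratio, 49.4, in Dgcr8 introns, where the knockout libraries held 243, 224 and 200 reads and V6.5 5.9, 4.6 and 0. Oas2, an enzyme induced by interferon, had an exon ratio of 2.22 in the Dicer pair and 21.1 in the Dgcr8 pair. Xaf1, an interferon-induced binding partner of the inhibitor of apoptosis XIAP, had 713, 1114 and 886 intronic reads in Dicer knockout against 88.4, 0 and 89.4 in TFC. Of the 22 genes in the list of interferon and RNA sensing, 0 were members. The exon rule was met by 4 of them in the Dicer pair, by 3 in the Dgcr8 pair and by 2 in both. Others were lower in the knockouts. Bst2 had exon ratios of 0.3 in the Dicer pair and 0.53 in the Dgcr8 pair, and Ifit2 of 0.65 and 0.15. Oas2, Xaf1, Zbp1 and Mb21d1 are not on the list of interferon and RNA sensing.

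A list of 14 blood cell markers was added after the members were known, and 13 are in the files. Their summed exonic level was higher in every Dgcr8 knockout library than in any V6.5 library, at 288 to 480 against 113 to 232, with 4 genes at a ratio of at least 2 and 2 at most 0.5. Without Cd68, the highest of them, the sums overlap, at 101 to 157 against 74.9 to 136. In the Dicer pair the sum was 301 to 345 in the knockout and 253 to 6793 in TFC, with 4 genes at a ratio of at least 2 and 8 at most 0.5. The highest TFC sum is library C, where Lyz2 stood at 4013 normalised reads and at 0 in libraries A and B. Ptprc, which all white blood cells carry, was at 0 in both groups of the Dgcr8 pair, at a mean of 1.28 in Dicer knockout and at 64.2 in TFC. The part of blood cells in the immune members was not tested.

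Striated muscle genes were 7 members. Ttn encodes titin, the spring protein of the sarcomere, and Ccdc141 is its neighbour on chromosome 2, 27.4 kilobases away on the same strand. Ttn exonic reads were 4454, 6539 and 8245 in Dicer knockout against 633, 3753 and 3885 in TFC. For Dgcr8 they were 2819, 11000 and 10170 against 741, 1614 and 1216. The intronic reads of Ttn overlap in the Dicer pair, at 64.2, 114 and 62.1 against 19.3, 1.1 and 96.4.

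Ccdc141 (77009902 to 77170636, minus strand) had 2323, 2651 and 1989 exonic reads in Dicer knockout against 251, 57.5 and 115 in TFC, and 479, 801 and 926 in Dgcr8 knockout against 81.3, 187 and 185 in V6.5. Its intronic reads were 1014, 622 and 662 against 55.9, 0 and 115 in the Dicer pair. For Dgcr8 they were 269, 362 and 303 against 29.6, 30.9 and 29.9. The log2 difference was 4.27 (standard error 0.52) in Dicer exons and 3.32 (0.42) in Dgcr8 introns, with n = 3 against 3.

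Capn3, a muscle calpain, had ratios of 5.11 and 8.95 in Dicer exons and introns and 17.0 and 8.71 in Dgcr8 exons and introns. It overlaps Ganc on the same strand, so its reads may be shared between the genes. Rbm20, a splicing factor of titin, Casq2, the calcium store protein of cardiac muscle, and Alpk3, a kinase of the heart, each overlap the wild type in at least 1 table. Obsl1, a cytoskeletal linker of the sarcomere, overlaps in all 4: its exonic reads were 2171, 451 and 469 in Dicer knockout against 694, 37.5 and 157 in TFC, with library A the highest in both. The regulators of the skeletal muscle lineage Myod1, Myog, Myf5 and Myf6 were at 0 in both knockouts and at or near 0 in the wild types. Their means were 1.78, 0, 0 and 0 in TFC and 0, 5.08, 7.44 and 0 in V6.5. The summed level of the 19 muscle markers, which include Ttn and Casq2, was 5324 to 9140 in Dicer knockout against 1611 to 5698 in TFC, and 3734 to 11920 in Dgcr8 knockout against 1950 to 2865 in V6.5. Ttn, chosen here for its ratio, makes up most of it in each knockout library. Without Ttn and Casq2 the other 17 summed to 754 to 794 against 544 to 1707 in the Dicer pair and to 569 to 785 against 853 to 1217 in the Dgcr8 pair, where the knockout was then the lower. Of the 19, 5 had a ratio of at least 2 and 8 of at most 0.5 in the Dicer pair, and 7 and 7 in the Dgcr8 pair.

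Genes of the extracellular matrix, adhesion and epithelia were 11 members, with median exon ratios of 7.89 in the Dicer pair and 3.63 in the Dgcr8 pair. Fstl1, a secreted glycoprotein that binds BMP and TGF-beta family ligands, and Nid1, a linker of laminin and collagen IV in basement membranes, were among the 4 members with the highest wild-type exonic reads. Nid1 exonic reads were 6305, 7322 and 7446 in Dicer knockout against 4814, 3069 and 2494 in TFC, and 6987, 7904 and 7767 in Dgcr8 knockout against 2026, 1877 and 1970 in V6.5. For Fstl1 they were 8979, 10140 and 10940 against 3501, 5408 and 3620, and 6328, 9864 and 9089 against 1506, 3622 and 3967. No table had an overlap for either gene. Nid1 was the only member among the 34 genes of the extracellular matrix list found in the files and Fstl1 the only one among 20 Yap and Tead targets. The exon rule was met by 9 matrix genes in the Dicer pair and 2 in the Dgcr8 pair, and by 12 and 2 Yap and Tead targets. Median log2 exon ratios were 0.99 and 0.0 in the 16 matrix genes past the minima, and 1.26 and -0.19 in 11 such targets. Several genes fell in the Dgcr8 pair, with exon ratios of 0.37 for Col4a1, 0.44 for Ctgf and 0.23 for Cyr61. In the Dicer pair these were 9.39, 3.25 and 3.92.

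Htra1, a secreted serine protease, had ratios of 8.94 in Dicer exons and 4.80 in Dgcr8 exons, and 3.19 and 2.31 in introns. Cemip, which breaks down hyaluronan, had ratios of 14.8 and 2.78 in the exons of the 2 pairs and 11.8 and 12.1 in the introns. Krt17, a keratin of basal epithelium and hair follicles, varied widely between libraries. Exonic reads were 3114, 600 and 664 in Dicer knockout against 535, 0 and 17.3 in TFC, and 2663, 184 and 62.4 in Dgcr8 knockout against 366, 39.9 and 0 in V6.5. Library A was the highest in each group, and the Dgcr8 exonic groups overlap. The 16 fibroblast markers had 1 gene with a ratio of at least 2 and 10 of at most 0.5 in the Dicer pair, and 3 and 9 in the Dgcr8 pair. Their sum was 6443 to 9992 in Dicer knockout libraries against 3965 to 6206 in TFC, most of it Vim, and without Vim 765 to 1462 against 718 to 1447. In Dgcr8 knockout it was 6927 to 13170 against 8151 to 16120 in V6.5, and without Vim 891 to 2323 against 6099 to 13420. Among the lower ones in the Dgcr8 pair, Col1a1 had means of 48.0 and 1375, Acta2 of 184 and 2681 and Tagln of 482 and 4025. Col1a2, Col3a1, Postn, Lum, Fap and Prrx1 were at 0 in Dicer knockout, but Fap and Prrx1 were at 0 in TFC as well. In TFC, Col1a2, Col3a1, Postn and Lum had low means of 29.01, 20.25, 54.36 and 19.8. The part of such cells in the matrix genes was not tested.

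Enzymes of metabolism and redox balance were 17 members. Cth, which makes cysteine from cystathionine, was one of the most even members, with 2535, 4907 and 4395 exonic reads in Dicer knockout against 987, 1056 and 974 in TFC. In the Dgcr8 pair they were 2013, 2369 and 3151 against 655, 616 and 641. Intronic reads of Cth were 1118, 1550 and 1473 against 359, 129 and 342, and 606, 702 and 955 against 184, 173 and 157. Its 4 ratios lay between 3.92 and 4.97.

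Aspa, which cleaves N-acetylaspartate, had 483, 478 and 556 exonic reads in Dicer knockout against 36.4, 108 and 50.3 in TFC, and 692, 427 and 665 intronic reads against 50.8, 68.9 and 11.2. In Dgcr8 knockout its exons held 101, 387 and 642 reads against 60.9, 20.9 and 31.9 in V6.5, with library A the lowest of the knockout. Pla2g7, a secreted phospholipase that inactivates platelet-activating factor, had ratios of 10.4 and 23.6 in Dicer exons and introns, and 5.69 and 4.59 in Dgcr8. Txnip exonic reads were 8786, 11840 and 13360 in Dicer knockout against 4736, 2575 and 2557 in TFC, and 6538, 7151 and 6885 in Dgcr8 knockout against 2620, 2763 and 2208 in V6.5. The 2 seed sites of Txnip stand beside an intron ratio of 2.03 in the Dicer pair, whose groups overlap, and of 2.75 in the Dgcr8 pair, whose groups do not.

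Ckb, the creatine kinase of brain, was far higher in library A than in B and C of every group. Its exonic reads were 7379, 967 and 1232 in Dicer knockout against 3388, 550 and 347 in TFC, and 8337, 511 and 505 in Dgcr8 knockout against 4065, 263 and 195 in V6.5. Within library A and within B and C the knockout is higher in each case, but the exonic groups overlap.

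Among germline genes, Tex11 and Hormad1, both of meiosis, were members from the germline list of 20. Naa11, an acetyltransferase of the testis, was placed with them. Tex11, on chromosome X, had 329, 637 and 361 exonic reads in Dicer knockout against 35.3, 138 and 51.8 in TFC, and 60.9, 196 and 353 in Dgcr8 knockout against 10.2, 25.4 and 31.9 in V6.5. Hormad1 exons held 557, 934 and 543 reads against 83.5, 328 and 455 in the Dicer pair. In the Dgcr8 pair they held 146, 779 and 948 against 35.5, 38.1 and 131. The germline list as a whole was at 8578 to 9403 summed reads in Dicer knockout against 5927 to 6853 in TFC, and at 2715 to 4578 in Dgcr8 knockout against 3274 to 5104 in V6.5. Without Tex11 and Hormad1 it was at 7553 to 8517 against 5421 to 6734, and at 2509 to 3277 against 3211 to 5058.

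Signalling genes were 11 members. Notum, an enzyme that inactivates Wnt proteins by removing their lipid, was the only member of the 31 genes in the Wnt list. Of these 31, 5 met the exon rule in the Dicer pair, 4 in the Dgcr8 pair and 2 in both. Other genes of the list were lower in both knockouts. Axin2 had exon ratios of 0.1 in the Dicer pair and 0.04 in the Dgcr8 pair, and Lef1 of 0.14 and 0.29. Notum exons held 2382, 359 and 519 reads in Dicer knockout against 273, 195 and 309 in TFC, and 1551, 450 and 349 in Dgcr8 knockout against 68.6, 39.0 and 12.8 in V6.5. The exon ratio was 4.18 in the Dicer pair and 19.1 in the Dgcr8 pair, and the groups overlap in no table. Rgs20, a regulator of G protein signalling, had the highest exon over intron ratios of the group, 33.3 against 5.25 in the Dicer pair and 9.30 against 3.55 in the Dgcr8 pair.

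Genes of the cytoskeleton, membrane traffic and neurons were 17 members, and 11 of them overlap the wild type in no table. So did 65 of all 134 members and 1.33% of the 10002 genes tested in all 4 tables. In the other role groups it was 7 of 11 for signalling, 6 of 11 for matrix and 8 of 17 for metabolism. For immunity it was 6 of 17, for transcription 5 of 16, for muscle 2 of 7 and for germline 1 of 3. Nothing is read from these counts, since the rule used the same contrast. Kif1b, a kinesin that moves mitochondria and synaptic vesicle precursors, was the most even member between tables, with ratios of 2.28, 2.20, 2.30 and 2.17. Its exonic reads were 5163, 6083 and 5677 in Dicer knockout against 2445, 2109 and 2884 in TFC. Syne2, a linker of the nuclear envelope to the cytoskeleton, had 4972, 2499 and 2579 against 891, 519 and 613 in the Dicer pair and 2790, 4385 and 3677 against 498, 623 and 558 in the Dgcr8 pair. Sorl1, a sorting receptor of the endosome, had exon ratios of 9.27 and 3.82 and intron ratios of 5.29 and 3.61. Mapt, which encodes tau, had intron ratios of 2.69 and 4.05. Tnfrsf8, the lymphocyte receptor CD30, and 1810010H24Rik were also among the 12 with the highest smallest ratio. For Tnfrsf8 the 4 ratios were 4.89 and 9.33 in Dicer exons and introns and 10.7 and 6.81 in Dgcr8. For 1810010H24Rik they were 39.5, 15.0, 21.6 and 6.70 in that order. The remaining 35 members were placed in no role group.

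The 2 pairs gave different ratios for many members. The exon ratio was the higher in Dicer for 56 and in Dgcr8 for 78, and the 2 ratios were within 2-fold of each other in 87. Across the 134 members the log2 exon ratios of the pairs had r = 0.27, and the log2 intron ratios r = 0.39. Within a pair, exon and intron log2 ratios had r = 0.56 for Dicer and 0.63 for Dgcr8. Over all 8322 genes past the minima these values were 0.52, 0.32, 0.57 and 0.65 in the same order. The rule cuts every ratio at 2, and exons and introns of a pair share libraries, so these correlations only describe the genes.

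**Figure D4:**
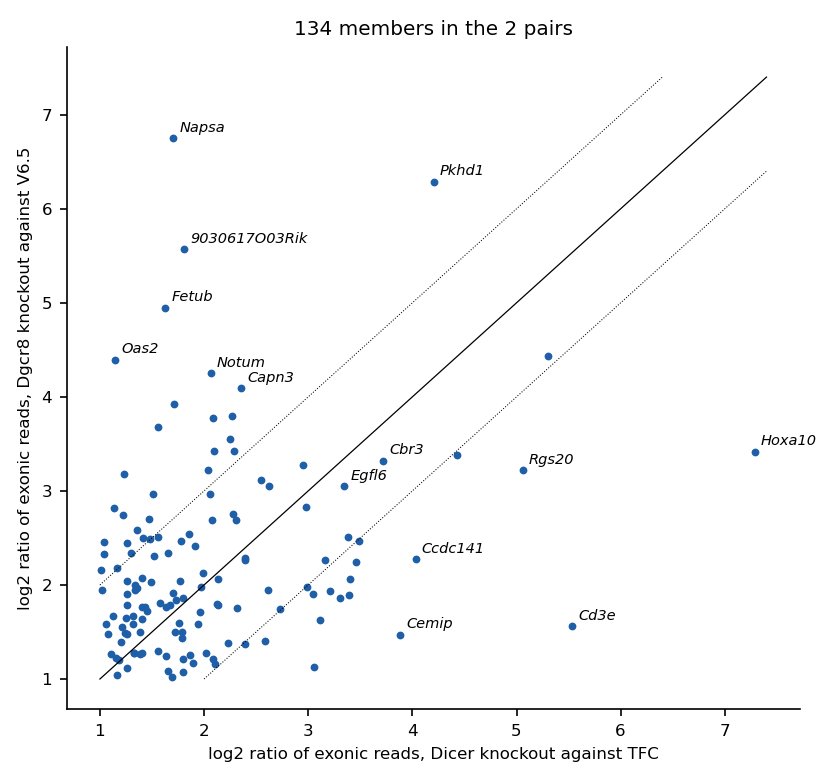
Log2 exon ratio of the 134 members in the Dicer pair (horizontal axis) and in the Dgcr8 pair (vertical axis), with the line of equal ratios and dotted lines at 2-fold from it. Hoxa10, Cd3e and Cemip lie farthest on the Dicer side and Napsa, 9030617O03Rik and Fetub farthest on the Dgcr8 side.

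Hoxa10, Cd3e and Cemip had the largest excess of the Dicer exon ratio. Cd3e, a chain of the T cell receptor complex, had 139, 0 and 95.6 exonic reads in Dicer knockout against 2.1, 0 and 0 in TFC, and 75.1, 35.0 and 40 in Dgcr8 knockout against 10.2, 16.3 and 22.3 in V6.5. Napsa, an aspartic protease of lung and kidney, had the largest excess in Dgcr8. Its exonic reads were 187, 62.1 and 70.4 in Dgcr8 knockout and 0 in all 3 V6.5 libraries, at least 42.0-fold higher against the floor, and 268, 63.6 and 199 in Dicer knockout against 73.8, 72.5 and 14.4 in TFC. The gene 9030617O03Rik, now called Dglucy, had 1045, 851 and 696 against 25.4, 20 and 6.4 in the Dgcr8 pair and 425, 529 and 486 against 8.6, 233 and 168 in the Dicer pair. Fetub, a protease inhibitor of plasma, had exon ratios of 3.08 and 30.9.

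The intron ratio was above the exon ratio in 82 members and below it in 52, on the mean of both pairs, and the 2 were within 2-fold in 121. Pkhd1, the gene of recessive polycystic kidney disease, Rgs20 and 1810010H24Rik had the largest excess in exons. Pkhd1 exonic reads were 136, 97.7 and 149 in Dicer knockout against 10.7, 0 and 7.2 in TFC, while its intronic reads were 179, 247 and 404 against 23.4, 0 and 231. In the Dgcr8 pair Pkhd1 had ratios of 78.2 in exons and 9.30 in introns. Tbx4, a T-box factor of the hindlimb and lung, Cd3e and Oas2 had the largest excess in introns. The Tbx4 intron ratio of 51.9 in the Dicer pair rests on 94.4, 55.5 and 2.8 reads against 0 in all 3 TFC libraries, at least 36.4-fold higher against the floor.

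Intronic reads per kilobase of intron were also set against exonic reads per kilobase of exon. The exon and intron tables were scaled separately, so the size of this share has no meaning by itself, and only sets of genes on the same scale are set side by side. In the members the median share was 2.44% in TFC and 2.69% in Dicer knockout, and 2.17% in V6.5 and 2.41% in Dgcr8 knockout. In the other genes past the minima it was 2.32% and 2.36%, and 1.90% and 1.89%. In the 35 genes with raised exons and flat introns it was 3.15% in TFC and 1.27% in Dicer knockout, and 2.25% in V6.5 and 1.04% in Dgcr8 knockout. The members' wild-type level was lower than that of the other genes, with a median of 62.9 against 335.5 exonic reads per kilobase in TFC and 45.9 against 242 in V6.5. In the knockouts it was 253 against 345 and 190.1 against 255. Deposited exon lengths had a median of 3076 bases in members and 3193 in the other genes, and intron lengths 28000 and 23820.

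Whether the libraries of a knockout lay above all 3 of the wild type differed by table. They did so for 112 members in Dicer exons, 91 in Dicer introns, 115 in Dgcr8 exons and 104 in Dgcr8 introns. Of all tested genes, 11.7%, 9.27%, 10.6% and 9.61% lay that way in the 4 tables. In 65 members no table had an overlap, against 1.33% of the 10002 genes tested in all 4. A further 39 were clear of overlap in 3 tables, 18 in 2, 9 in 1 and 3 in none, which were Pink1, Obsl1 and Qpct. With limma, an adjusted p under 0.05 was reached in the upward direction by 25 members in Dicer exons, 12 in Dicer introns, 26 in Dgcr8 exons and 39 in Dgcr8 introns, where 1.02%, 0.275%, 0.777% and 1.11% of all genes tested were called. Nothing is read from these counts, since the rule used the same contrast.

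Pink1, the kinase that marks damaged mitochondria, had 1478, 491 and 327 exonic reads in Dicer knockout against 603, 40 and 193 in TFC, and 992, 284 and 237 in Dgcr8 knockout against 340, 74.4 and 41.4 in V6.5. Library A was the highest in each group. Qpct, which forms pyroglutamate at the ends of peptides, had 122, 199.9 and 47.8 against 62.1, 0 and 112 in Dicer exons, with no such order.

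**Figure D5:**
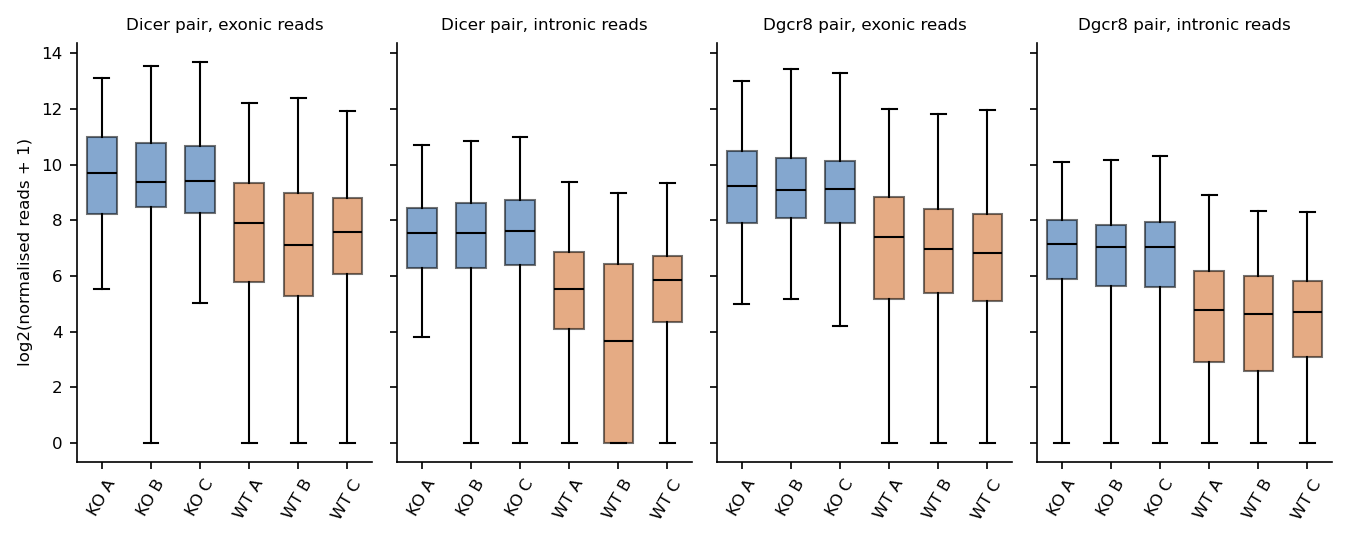
Normalised reads plus 1 on a log2 axis (vertical) of all 134 members in each of the 6 libraries of a table, as boxes from the lower to the upper quartile of the genes with the median as a line and whiskers to the lowest and highest gene. The knockout medians lie above the wild-type medians in each table, as the rule sets, and TFC library B in Dicer introns has the lowest median, 11.7 against 45.7 and 57.3 in A and C.

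Set within libraries A alone, 134 members were higher in the knockout in Dicer exons, 131 in Dicer introns, 134 in Dgcr8 exons and 127 in Dgcr8 introns. Within libraries B and C together, 134, 134, 134 and 132 were higher. The median log2 difference was 1.76, 1.77, 1.80 and 2.03 within A, and 2.02, 2.68, 2.28 and 2.37 within B and C. Of all genes past the minima, 47.3% to 51.0% were higher within A and 52.0% to 55.4% within B and C, with medians between -0.05 and 0.12. These are the libraries whose means chose the members, so high counts follow from the rule and nothing is read from them.

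Promoter sequences from RefSeq (build GRCm38.p6, 250 bases before to 50 after a start) were found for 100 of the 134 members. Fewer than 80% matched, so a comparison of promoter composition over the set is void, and only single promoters are given. Those of the 3 members with the highest smallest ratio are printed on the gene's strand with the motifs found in capitals. Both strands were searched for 9 short motifs. Tead factors are known to bind letters such as GGAATG. The AP-1 factors, which respond to growth signals, are known for TGACTCA. Repressors of the Snail and Zeb families bind E-boxes, searched here as CAGGTG. A variant of that box that ends in another base was searched as well, namely CAGGTA. The box bound by Myc and its partners is CACGTG. The TATA box, which places the start of transcription in some genes, was searched as TATAAA. The GC box bound by Sp1 was searched by its core, GGGCGG. Factors of the CREB family, which respond to cyclic AMP, were searched by ACGTCA. Smad factors, which act after TGF-beta signals, were searched by GTCTAG.
Hoxa10, chr6:52240805-52241104, minus strand: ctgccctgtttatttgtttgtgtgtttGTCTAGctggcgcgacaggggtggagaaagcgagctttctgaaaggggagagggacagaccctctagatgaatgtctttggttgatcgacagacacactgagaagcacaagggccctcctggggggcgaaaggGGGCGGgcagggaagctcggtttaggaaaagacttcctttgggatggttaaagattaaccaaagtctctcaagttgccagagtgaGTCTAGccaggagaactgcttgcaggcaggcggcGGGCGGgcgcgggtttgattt
Cbr3, chr16:93682969-93683268, plus strand: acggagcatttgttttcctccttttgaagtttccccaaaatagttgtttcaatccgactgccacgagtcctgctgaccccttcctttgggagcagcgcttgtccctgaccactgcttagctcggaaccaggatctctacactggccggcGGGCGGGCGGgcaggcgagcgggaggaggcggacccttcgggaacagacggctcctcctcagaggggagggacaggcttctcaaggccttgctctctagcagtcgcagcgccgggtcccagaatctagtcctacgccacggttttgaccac
Egfl6, chrX:166585667-166585966, minus strand: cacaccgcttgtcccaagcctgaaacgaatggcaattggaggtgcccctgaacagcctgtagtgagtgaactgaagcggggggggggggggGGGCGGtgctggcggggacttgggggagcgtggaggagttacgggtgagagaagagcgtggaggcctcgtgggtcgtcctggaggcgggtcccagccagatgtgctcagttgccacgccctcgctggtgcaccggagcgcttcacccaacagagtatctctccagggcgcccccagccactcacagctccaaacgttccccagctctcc
All 3 hold GGGCGG, the core of a GC box, which 53% of all 14638 promoters of this length hold. In Cbr3 its 2 matches overlap. Hoxa10 also holds GTCTAG in 2 places, letters found in 8.61% of all promoters. A match describes the sequence and is no evidence of binding.

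Members lay on every autosome and on chromosome X, with the most on chromosome 11 (15, or 2.23% of the genes there past the minima) and chromosome 2 (13, or 1.92%). Altogether 22 members had another member within 1 megabase. Beside Ttn and Ccdc141, the closest were Lix1l and Txnip on chromosome 3, 39.3 kilobases apart, and Atf5, Napsa and Shank1 on chromosome 7, with gaps of 212 and 225 kilobases. The others were Nod1 with Scrn1, Dennd1b with Zbtb41, Pla2g7 with Tnfrsf21, Alpk3 with Ttll13, Ckb with Mok, A4galt with Pnpla3, Aspa with Xaf1, and Hormad1 near Txnip. Another annotated gene overlapped 35 members on the same strand, a protein-coding one in 5, and 57 on the other strand, a protein-coding one in 17. Reads of such genes may be shared by the authors' counting.

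Of 23 lists of pathways and cell markers, 10 members were in 8, and 15 lists had 0 members. Those without any included the microRNA pathway, Smad2/3 targets, p53 targets, imprinted genes, primed epiblast and primitive endoderm. In the list of 20 miR-290 and miR-302 targets, 7 met the exon rule in both pairs and 1, Txnip, also met the intron rule in both. Its 16 genes past the minima had median log2 ratios of 1.19 and 0.95 in exons and 0.33 and -0.06 in introns. The muscle list had 3 of 19 genes that met the exon rule in both pairs, of which Ttn and Casq2 were members.

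The smallest of the 4 ratios was 2.004 in Alpk3, 2.010 in A4galt, 2.012 in Susd1 and 2.017 in 2410137M14Rik, the members just inside the limit. Just outside were Meioc at 1.996, Tcf7l2 at 1.983, Optn at 1.971 and Aldh2 at 1.966. In Alpk3 and A4galt the smallest ratio was that of Dicer introns, in Susd1 that of Dgcr8 introns and in 2410137M14Rik that of Dicer exons.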

How the data were processed

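Exons and introns of each pair were deposited by the authors as separate tables, 4 in all, whose signal is the mean of size-factor-normalised reads per genotype for 18412 genes. The submitters' processing notes name TopHat2 2.0.12, the package DESeq and mm10 as the build. No source used here says how reads were assigned. Each deposited mean is a whole-number sum of 3 steps, 1 per library. Solving for them gave whole reads per library for 99.46% to 100.0% of genes in a column, and for all members. Recovered libraries carry no replicate number: A has the lowest correlation with the other 2, and the match of B and C between exons and introns is weak. Size factors recomputed from the recovered reads differed by -0.439% to 0.598%. limma 3.58.1 (R 4.3.3) was run with a variance trend on log2(value + 1), knockout minus wild type, within each table, over genes with a mean of at least 10, with Benjamini-Hochberg adjustment over all of them and 4 residual degrees of freedom. The fit and the recovery of reads were tested on simulated data. The tables were scaled separately, so levels are not tested between them, and a share of intronic over exonic reads compares sets of genes only. Wild-type levels that rank members are means over both pairs. Marker sums cover genes with reads recovered in all 6 libraries of a pair, and sums without single genes were added after the sums were seen. An exact permutation test of 3 against 3 cannot go below 0.1. Since separate cultures are not stated, a p-value here covers the variation among libraries alone, possibly a technical one.

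Members, lists and tests were chosen with earlier results of these data known. Genes are named where they have the 12 highest smallest ratios, belong to a list, have the 3 most extreme differences between pairs or between exon and intron on either side, have the 4 highest wild-type levels, lie within 1 megabase of another member, or are among the 4 just inside or outside the limit. Other genes, named as examples of role groups, seed sites or libraries, were chosen after their values were seen, as were the role groups. Older symbols were matched through RefSeq synonyms for 6 members. Deposited intron lengths had a median of 0.992 of all annotated intronic length over 17354 genes, so in a typical gene they cover nearly all introns. This does not hold for every gene. The member 1810010H24Rik, annotated from 107025681 to 107030443 on chromosome 11, has deposited lengths of 1099 exonic and 1081 intronic bases.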

Additional observations from a re-analysis of the deposited data

How the results depend on the processing

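The 134 members became 340 with a ratio limit of 1.5, 47 with 3, and 207 with no knockout minimum. With other constants, higher minima or rescaled ratios, 106 to 147 genes met the rule, of which 106 to 134 were among the 134. With library medians 128 did, of which 98 were, and without 1 library each 114 to 146 did, of which 106 to 127 were. Members called by limma moved more. Without the variance trend, 1 was called in Dicer exons, 0 in Dicer introns, 15 in Dgcr8 exons and 14 in Dgcr8 introns. Of all genes tested, 0.144%, 0.0086%, 0.542% and 0.456% were then called up. With limma-voom, 3, 6 and 23 were called in Dicer exons, Dgcr8 exons and Dgcr8 introns, beside 0.129%, 0.22% and 0.847% of all genes. With a term for library A against B and C, 89, 22, 123 and 67 were called in the 4 tables. That term also called more of all genes, 7.26%, 0.551%, 8.3% and 2.61%. The main fit called 1.02%, 0.275%, 0.777% and 1.11% of them. A constant of 5 gave 23 in Dicer introns, beside 0.465% of all genes. Leaving out 1 library gave 0 to 52 in Dicer exons and 0 to 13 in Dicer introns. In Dgcr8 exons it gave 0 to 44, and in Dgcr8 introns 9 to 32 (9 to 17 without library B or C of either group). Over all genes these shares ran from 0% to 2.52%, 0% to 0.258%, 0% to 2.14% and 0.149% to 1.23% in the 4 tables. The calls in Dicer exons fell to 0 without knockout or TFC library B or C, those in Dicer introns without knockout library B or C or TFC library C, and those in Dgcr8 exons without knockout or V6.5 library B or C. In those cases 86 to 98, 59 to 76 and 99 to 112 members had an unadjusted limma p under 0.05. In Dicer introns without the trend 81 had one. The share of all genes at that unadjusted p is not given here. The rule chose the members by the same contrast, so nothing is read from any of these counts. Of the values of named genes under an alternative, 2194 stayed on their side of the threshold, 170 lost it, 130 passed it and 2 changed sign: Shank1 in Dicer exons (log2 difference -0.35 without TFC library C) and Ckb in Dgcr8 exons (-0.22 without Dgcr8 knockout library A). No paired analysis was possible because the columns carry no replicate numbers, and the term for library A is a set seen in the data, not a number in the labels. Zeros among members did not follow depth: TFC library B had 57 in introns with 2578445 intronic reads, TFC library C 15 with 2092825 and V6.5 library A 18 with 559057, and their cause was not tested.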
